A study of Mus musculus with 95 samples.

Results

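The lungs of mice that lack CD40 ligand (CD40L-KO) and of C57BL/6 mice were compared after both strains had been housed for 32 days beside a mouse that carried the lung fungus Pneumocystis murina. The comparison rests on 6 of the 95 expression arrays of the series, chosen by their labels: 3 from exposed CD40L-KO mice and 3 from exposed C57BL/6 mice, 1 array a mouse, both of experiment 1. All were labelled female and 8 weeks of age, and RNA came from whole lung homogenate. In that experiment both strains were housed together in 1 exposed cage and 1 unexposed cage, so the exposed strains met the same infected cage mate. The unexposed cage supplied 3 CD40L-KO and 2 C57BL/6 arrays of day 32, used here as the background of strain without exposure. Other mice used further on were exposed CD40L-KO mice of day 35 (4 arrays, experiment 4) against exposed C57BL/6 mice of day 34 (10 arrays, experiment 2), and exposed CD40L-KO against exposed C57BL/6 mice of day 75 (3 arrays each). In those fits, unexposed C57BL/6 mice of day 34, unexposed CD40L-KO mice of day 14 and exposed CD40L-KO mice of day 39 added to the estimate of spread. The deletion is carried in all cells of CD40L-KO mice, and its effect cannot be told apart here from any other difference between the mouse lines. The amount of fungus in each lung was not analysed here.

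CD40 ligand is a surface protein that activated CD4+ T cells use to engage CD40 on B cells, dendritic cells and macrophages. In B cells this contact is needed for germinal centres and for class switching of antibodies. In dendritic cells and macrophages it raises antigen presentation and cytokine output, which in turn shape T cell responses and the release of interferon-gamma. CD40L-deficient mice and humans are known for their susceptibility to Pneumocystis pneumonia.

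Levels are log2(intensity + 8), so an unlit probe set sits at 3, and differences are CD40L-KO minus C57BL/6 on that scale, with limma's standard error (SE) and its p adjusted over 8251 genes. The probe set for Cd40lg, the deleted gene, read 1.90, 1.16 and 2.65 in exposed CD40L-KO lungs, against 2.40, 1.70 and 1.94 in exposed C57BL/6 lungs. These values are near the floor in both strains and so cannot check the genotype. Sftpc, the surfactant gene of alveolar cells, and Xist above the Y-linked Eif2s3y in all 11 arrays matched lung and female. Transcripts of squamous epithelium, which lung tissue does not normally contain, stood apart on exposed CD40L-KO replicate 3 and on unexposed CD40L-KO replicates 1 and 2, with a mean of 18 marker levels of at least 6.60, against at most 5.40 on the arrays without them. No C57BL/6 array of day 32 carried them, and counts without these 3 arrays are given below. Gapdh control probes, whose 3' over 5' signal reflects RNA integrity, gave ratios of 0.918 to 1.00 in exposed CD40L-KO and 0.930 to 1.03 in exposed C57BL/6 lungs, against 1.16 to 1.37 in unexposed CD40L-KO and 0.906 to 0.951 in unexposed C57BL/6 lungs.

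With limma, 226 of 8251 genes passed an adjusted p of 0.05 (2.74%), of which 152 were lower (1.84%) and 74 higher (0.897%) in CD40L-KO lungs. At an unadjusted p under 0.05 there were 1600 (19.4%). In each of these 226 genes the 3 CD40L-KO arrays did not overlap with the 3 C57BL/6 arrays, which held for 9.94% (lower) and 14.3% (higher) of all genes. The lower genes had the larger differences: their median size was 1.46, with 30 over 2 and 114 over 1, whereas the higher genes had a median of 0.95, with 1 over 2 and 32 over 1. The count depended on single mice and lay between 53 without CD40L-KO replicate 2 and 683 without C57BL/6 replicate 2. It was 85 and 70 without CD40L-KO replicates 1 and 3, 82 and 80 without C57BL/6 replicates 1 and 3, 20 without the 3 arrays with squamous transcripts, and 43 with the exposed arrays alone. The split between directions moved too: 375 were lower and 308 higher without C57BL/6 replicate 2, 470 and 424 with all arrays of the series in one fit, and 227 and 182 among the brighter genes. Over all genes, 3351 of 8251 differences lay below 0. Because whole lung was sampled, fewer cells of a type and less RNA per cell cannot be told apart in any of these differences.

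**Figure D1:**
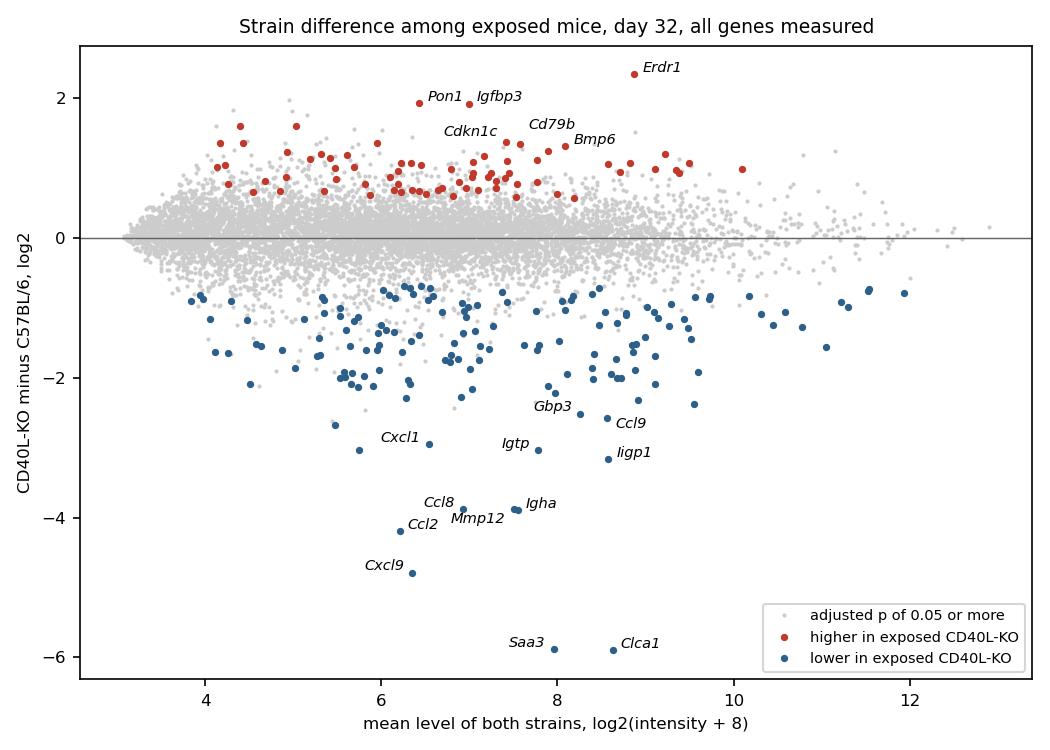
Difference between exposed CD40L-KO and exposed C57BL/6 lungs of day 32 (vertical axis, log2) against the mean level of both strains (horizontal axis, log2(intensity + 8)) for 8251 genes. Blue points are the 152 lower and red points the 74 higher genes with limma's adjusted p under 0.05. The lower genes reach -5.90 and the higher ones 2.35.

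The largest differences lay in an acute phase protein, chemokines and an airway secretory gene. Saa3, an acute phase protein made by macrophages and epithelium, had intensities of 21.1, 20.7 and 32.4 in exposed CD40L-KO lungs, against 2454, 978 and 2867 in exposed C57BL/6 lungs. It was 59.1-fold lower on the intensity + 8 scale (difference -5.89, SE 0.40, limma adjusted p = 0.00013). The exposed CD40L-KO arrays lay among or below the unexposed ones, which read 28.3 to 34.4 in CD40L-KO and 24.03 and 65.05 in C57BL/6 lungs. Lcn2, a neutrophil and epithelial protein that withholds iron from microbes, read 310, 303 and 359 in CD40L-KO, against 2222, 1124 and 1969 in C57BL/6 lungs (difference -2.37, SE 0.32, limma adjusted p = 0.0058). A further, dimmer probe set of Lcn2 gave -0.09 (SE 0.14). Saa3 and Lcn2 were the called members of 20 measured acute phase and neutrophil genes, whose median difference was -0.14, against 0.07 over all genes. Both kept the call without each single exposed array and without the arrays with squamous transcripts.

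Of 19 measured chemokine genes that draw monocytes, neutrophils and other myeloid cells, 6 were lower in exposed CD40L-KO lungs and 0 higher, with a median difference of -1.15. This median was -1.04 without the arrays with squamous transcripts. Ccl2, which recruits monocytes through CCR2, read 11.6, 8.54 and 7.89 in CD40L-KO, against 272, 137 and 774 in C57BL/6 lungs (difference -4.19, SE 0.50, limma adjusted p = 0.0036). Ccl8, another ligand for monocytes and T cells, read 47.9, 8.01 and 27.4 in CD40L-KO, against 701, 277 and 492 in C57BL/6 lungs (difference -3.88, SE 0.46, limma adjusted p = 0.0036). In both genes the lowest C57BL/6 mouse was several-fold above the highest CD40L-KO mouse. Cxcl1, a neutrophil attractant, fell to 22.5 to 28.1 in CD40L-KO, against 127 to 367 in C57BL/6 lungs (difference -2.94, SE 0.38), and its further probe set gave -3.00. Ccl9, a macrophage chemokine, was at 139 to 162 in CD40L-KO and at 473 to 1723 in C57BL/6 lungs (difference -2.57, SE 0.38). The monocyte chemokines Ccl7 and Ccl12 had differences of -3.04 (SE 0.49) and -1.68 (SE 0.32). Ccl2, Ccl8, Cxcl1 and Ccl9 kept the call without each single exposed array. The number of called members ranged from 4 without CD40L-KO replicate 2 or 3 to 8 without C57BL/6 replicate 2, and was 0 without the arrays with squamous transcripts.

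**Figure D2:**
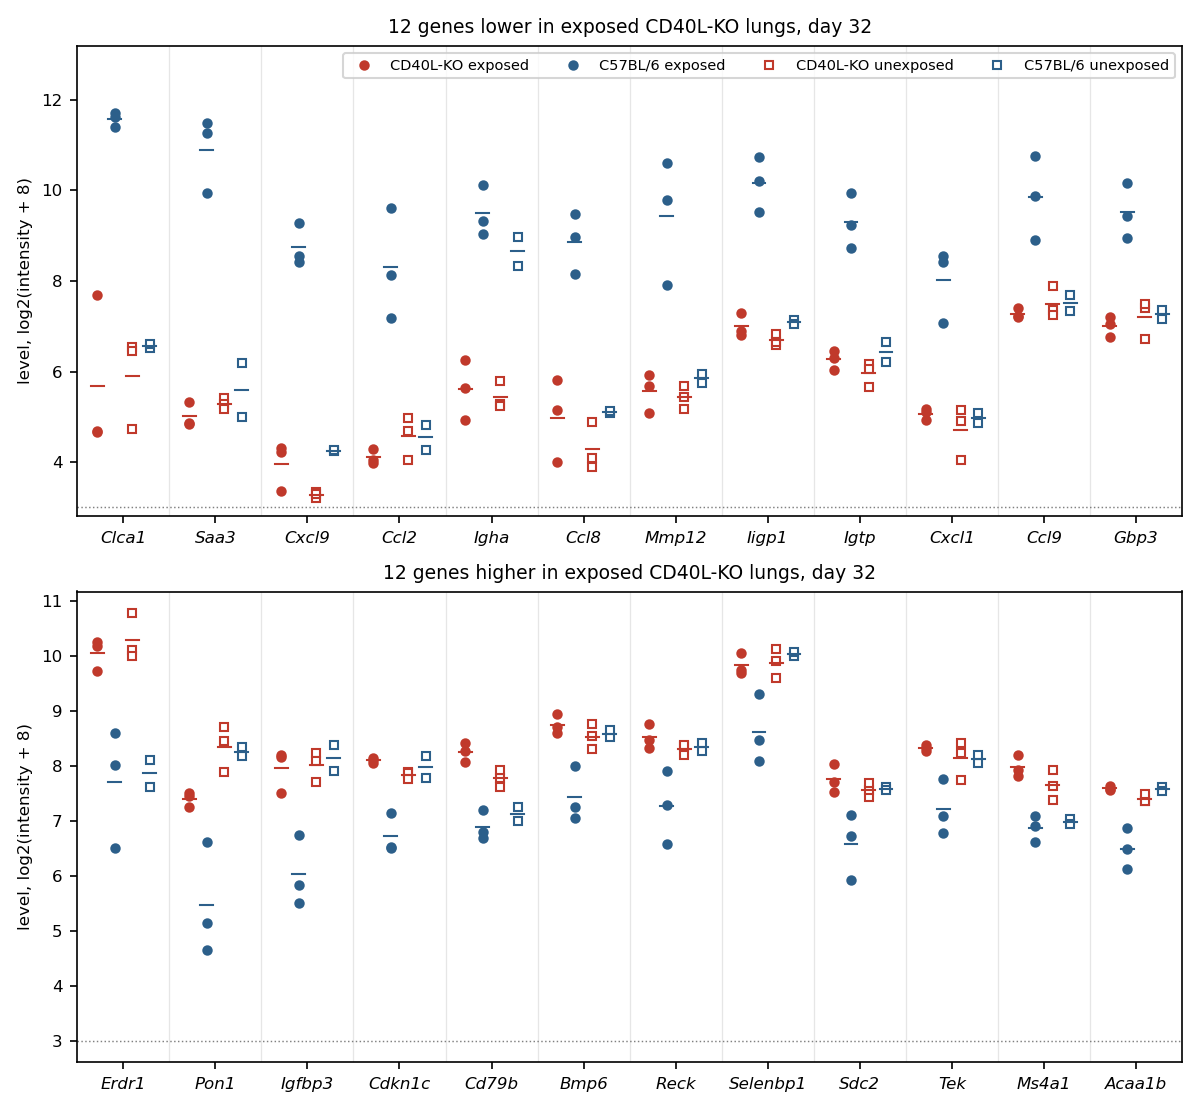
Level, log2(intensity + 8), of the 12 genes with the largest lower and the 12 with the largest higher difference on each array of day 32. Filled circles are exposed and open squares unexposed mice, red CD40L-KO and blue C57BL/6, short lines are group means, and the dotted line marks the floor of 3. For most of the lower genes exposed CD40L-KO mice sit with the unexposed mice, and Igha and Erdr1 separate the strains in both cages.

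Of 29 measured genes induced by interferon-gamma or of the CXCR3 axis, 15 were lower in exposed CD40L-KO lungs and 0 higher, and the median difference was -1.25, against 0.07 over all genes. The list median was -1.34 without the arrays with squamous transcripts. Cxcl9, a CXCR3 ligand that draws activated T cells, read 10.6, 2.20 and 11.9 in CD40L-KO, against 367, 332 and 613 in C57BL/6 lungs (difference -4.79, SE 0.28, limma adjusted p = 5.2e-05). Cxcl10, a ligand of the same receptor, read 15.4, 14.4 and 2.60 in CD40L-KO, against 77.8, 53.6 and 262 in C57BL/6 lungs (difference -2.67, SE 0.51, limma adjusted p = 0.026). Cxcr3 itself, the receptor on activated T cells, had a difference of -1.63 (SE 0.30). The groups did not overlap in any of the 3 genes. Igtp, an immunity-related GTPase that acts on membranes around intracellular microbes, read 57.6, 79.9 and 71.2 in CD40L-KO, against 591, 416 and 969 in C57BL/6 lungs (difference -3.03, SE 0.28, limma adjusted p = 0.0010). The guanylate-binding proteins Gbp3 and Gbp2, of like function, had differences of -2.51 (SE 0.30) and -2.31 (SE 0.30), and the further GTPases Irgm1, Irgm2 and Ifi47 had -1.72, -1.63 and -2.21. Socs1, a feedback inhibitor of interferon signalling, had -2.27 (SE 0.35). The remaining called members, Tap1, Tap2, Psmb8, Psmb9 and Psmb10, also belong to the class I presentation list and are given there. Iigp1, a GTPase of the same family outside this list, read 111, 104 and 148 in CD40L-KO, against 1174, 724 and 1707 in C57BL/6 lungs (difference -3.16, SE 0.27, limma adjusted p = 0.00073), with -3.28 on its further probe set. Ifng, which encodes interferon-gamma, read 1.68 to 4.37 in CD40L-KO, against 4.36 to 22.5 in C57BL/6 lungs, and its difference of -0.97 (SE 0.31) did not pass (limma adjusted p = 0.11). Leaving out single exposed arrays gave 9 called members without CD40L-KO replicate 2 and up to 19 without C57BL/6 replicate 2, and 3 remained without the arrays with squamous transcripts. Cxcl9, Igtp, Gbp3, Gbp2 and Iigp1 kept the call without each single exposed array, whereas Cxcl10 lost it without any of the CD40L-KO arrays and without C57BL/6 replicate 1.

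The proximal promoters of the interferon-induced genes are shown because 2 short motifs recur in them, the gamma-activated site (GAS, TTCNNNGAA) and the interferon-stimulated response element (ISRE, GAAA and GAAA with NN between them). Both strands were searched from 250 bases before to 50 bases after each RefSeq start site in GRCm38.p6, overlapping matches were counted, and 14 of the 15 called members had a window. An ISRE was found in 7 of the 14 (50%) and a GAS in 3 (21.4%), against 3.99% and 9.55% of 27025 genes, and either motif in 8 (57.1%), against 12.9%. Among the 6572 measured genes with a window the shares were 3.9% for the ISRE, 8.51% for the GAS and 11.8% for either. Because the list was drawn up from interferon-gamma-induced genes and the CXCR3 axis, its shares describe the list and do not test the strain difference. Among all called genes with a window, either motif was present in 28 of 119 lower genes (23.5%), the 14 included, and 4 of 60 higher genes (6.67%). The last 150 bases before the start site follow in the direction of transcription, with motif letters in capitals. Igtp and Irgm2 carry a GAS followed by an ISRE. The sequences of these 2 genes are near-identical around both motifs, so they are not separate occurrences, though both are counted above. The windows of Tap1 and Psmb9 overlap and hold neither motif. Gbp2 carries an ISRE on the opposite strand, and Cxcl9, the gene with the largest difference of the list, had no match of these letters in the window.
Igtp, chr11:58199406-58199555, plus strand: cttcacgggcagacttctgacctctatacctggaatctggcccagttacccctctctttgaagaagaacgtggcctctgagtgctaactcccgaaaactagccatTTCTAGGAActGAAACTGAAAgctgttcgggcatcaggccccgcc
Irgm2, chr11:58214827-58214976, plus strand: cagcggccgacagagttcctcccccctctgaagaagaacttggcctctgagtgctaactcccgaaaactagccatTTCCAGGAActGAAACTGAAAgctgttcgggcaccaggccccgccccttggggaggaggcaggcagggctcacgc
Gbp2, chr3:142620513-142620662, plus strand: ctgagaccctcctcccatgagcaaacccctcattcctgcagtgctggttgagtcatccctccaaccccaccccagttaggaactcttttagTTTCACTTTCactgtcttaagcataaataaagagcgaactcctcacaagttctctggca
Cxcl9, chr5:92328080-92328229, minus strand: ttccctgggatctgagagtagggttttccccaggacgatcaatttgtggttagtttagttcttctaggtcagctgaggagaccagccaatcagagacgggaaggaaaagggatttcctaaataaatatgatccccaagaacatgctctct
In Igtp the GAS ends 36 and the ISRE 24 bases before the start site, in Irgm2 66 and 54 bases, and in Gbp2 the ISRE ends 49 bases before it. A match of letters is a description of the sequence and not evidence of binding.

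Among 15 measured genes known best as targets of type I interferon, 3 were lower in exposed CD40L-KO lungs and 0 higher, with a median difference of -1.07 and all 15 differences below 0. The median was -0.98 without the arrays with squamous transcripts. Isg15, a ubiquitin-like modifier, read 93.1, 91.4 and 140 in CD40L-KO, against 345, 306 and 1094 in C57BL/6 lungs (difference -2.12, SE 0.40, limma adjusted p = 0.024). Ifit1, which binds viral RNA, had a difference of -1.87 (SE 0.33), and Irf7, a transcription factor of the interferon response, had -1.51 (SE 0.30). A further probe set of Irf7 gave -0.52. C57BL/6 replicate 3 was the highest mouse in each of these 3 genes. The count was 0 without any 1 of the 3 CD40L-KO arrays, 1 and 2 without C57BL/6 replicates 1 and 3, 8 without C57BL/6 replicate 2, and 0 without the arrays with squamous transcripts.

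In the CD40 pathway itself, 5 of 28 measured genes were lower in exposed CD40L-KO lungs and 0 higher, with a median difference of -0.44. This median was -0.48 without the arrays with squamous transcripts. Ccl17, a chemokine that CD40-activated dendritic cells release to attract CCR4+ T cells, read 51.1, 53.7 and 56.9 in CD40L-KO, against 439, 130 and 332 in C57BL/6 lungs (difference -2.16, SE 0.44, limma adjusted p = 0.033). Ccl22, the other ligand of CCR4, read 68.6 to 88.3 in CD40L-KO, against 121 to 202 in C57BL/6 lungs (difference -1.04, SE 0.23). The maturation marker of dendritic cells Cd83 read 37.5, 30.8 and 34.0 in CD40L-KO, against 103, 78.4 and 111 in C57BL/6 lungs (difference -1.32, SE 0.18, limma adjusted p = 0.0058). Of the signalling members, Traf1, an adaptor of the receptor, had a difference of -0.81 (SE 0.18), and Tnfaip3, a feedback inhibitor of NF-kappaB, had -1.55 (SE 0.30) from intensities of 2.08 to 12.7 in CD40L-KO and 25.4 to 51.7 in C57BL/6 lungs. The receptor gene Cd40 read 51.4 to 73.4 in CD40L-KO and 59.7 to 78.5 in C57BL/6 lungs, overlapping groups (difference -0.15, SE 0.18, limma adjusted p = 0.72). Cd83 kept the call without each single exposed array. Ccl17, Ccl22 and Traf1 lost it without any exposed array other than C57BL/6 replicate 2, and the count ran from 1 to 7 under these exclusions and was 0 without the arrays with squamous transcripts.

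T cell transcripts were lower in exposed CD40L-KO lungs for 6 of 23 measured genes and higher for 0, with a median difference of -0.59. This median was -0.55 without the arrays with squamous transcripts. Cd3g, a chain of the T cell receptor complex, read 12.7, 20.2 and 20.6 in CD40L-KO, against 224, 40.7 and 116 in C57BL/6 lungs (difference -2.13, SE 0.45, limma adjusted p = 0.039). Icos, a costimulatory receptor of activated and follicular helper T cells, was near the floor in CD40L-KO lungs at 2.36, 3.38 and 3.60, against 102, 17.2 and 29.9 in C57BL/6 lungs (difference -2.09, SE 0.41). Ctla4, an inhibitory receptor of activated and regulatory T cells, read 0.654 to 3.14 in CD40L-KO, against 12.8 to 35.8 in C57BL/6 lungs (difference -1.63, SE 0.30). In these genes C57BL/6 replicate 1 was the highest and replicate 2 the lowest mouse of its strain. The surface receptors Cd5 and Cd6 had differences of -1.91 (SE 0.32) and -2.09 (SE 0.48), with -0.35 on the further probe set of Cd6, and Cd3d had -1.12 (SE 0.23), with 0.01 on a further, dim probe set. The mean level of the list was 5.05 to 5.29 in exposed CD40L-KO and 5.65 to 6.52 in exposed C57BL/6 lungs, against 5.05 to 5.21 and 5.09 to 5.21 in unexposed lungs of CD40L-KO and C57BL/6 mice. These calls depended on single mice: 0 members were called without CD40L-KO replicate 2 or 3, 1 without CD40L-KO replicate 1 or C57BL/6 replicate 3, 2 without C57BL/6 replicate 1, 9 without C57BL/6 replicate 2, and 0 without the arrays with squamous transcripts.

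Of 16 measured cytotoxic and natural killer genes, 0 passed in either direction with limma, and the median difference was -0.22. At an unadjusted p under 0.05 there were 4 of the 16, against 19.4% of all genes. Ctsw, a protease of cytotoxic lymphocytes, read 8.27, 4.14 and 7.36 in CD40L-KO, against 107, 7.88 and 78.3 in C57BL/6 lungs, groups that overlapped (difference -1.90, SE 0.62, limma adjusted p = 0.13). Of 32 measured interleukins and their receptors, 1 was called, Il18bp, a soluble inhibitor of interleukin 18. It read 28.3, 28.2 and 37.0 in CD40L-KO, against 161, 100 and 245 in C57BL/6 lungs (difference -2.09, SE 0.30, limma adjusted p = 0.0080) and kept the call without each single exposed array. The type 2 cytokine Il13 was near the floor, at 5.06 to 10.0 in CD40L-KO and 5.78 to 9.52 in C57BL/6 lungs.

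Macrophage and monocyte transcripts were lower for 8 of 30 measured genes and higher for 0, with a median difference of -0.70. This median was -0.71 without the arrays with squamous transcripts. Mmp12, the macrophage elastase, read 26.1, 43.4 and 53.0 in exposed CD40L-KO, against 1555, 232 and 880 in exposed C57BL/6 lungs, 14.6-fold lower (difference -3.87, SE 0.54, limma adjusted p = 0.0074), with -3.38 on its further probe set. Cd14, the coreceptor for bacterial lipopolysaccharide, read 352, 311 and 256 in CD40L-KO, against 898, 622 and 990 in C57BL/6 lungs (difference -1.41, SE 0.20, limma adjusted p = 0.0080). Timp1, an inhibitor of matrix proteases, had -1.89 (SE 0.33), with 0.21 on a further probe set near the floor. The lysosomal proteases Ctsz, Ctss and Ctsc and the surface proteins Cd68 and Cd52 had differences between -1.47 and -0.84. Mmp12 and Cd14 kept the call without each single exposed array, and the count ran from 2 without CD40L-KO replicate 2 to 16 without C57BL/6 replicate 2.

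The 3 chains of complement C1q, which macrophages secrete, were the called members of 11 measured complement genes. The list had a median difference of -0.54, and of -0.59 without the arrays with squamous transcripts. C1qc read 319, 234 and 233 in exposed CD40L-KO, against 1701, 732 and 1151 in exposed C57BL/6 lungs (difference -2.09, SE 0.27, limma adjusted p = 0.0048). C1qb and C1qa had differences of -1.94 (SE 0.32) and -1.69 (SE 0.27), with -0.23 on a further probe set of C1qb. The unexposed arrays of both strains read 264 to 357 for C1qc, so exposed CD40L-KO mice lay within or just below that range. C1qc kept the call without each single exposed array, and 1 to 5 members were called under these exclusions. Cyba, a subunit of the phagocyte NADPH oxidase, was the called member of 10 measured oxidase and phagosome genes (difference -0.83, SE 0.18), and it lost the call without any exposed array other than C57BL/6 replicate 2. In both the macrophage and the complement list, 0 members were called without the arrays with squamous transcripts.

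Antigen presentation genes of both classes were lower. Of 12 measured MHC class I genes, which load and display peptides to CD8+ T cells, 9 were lower and 0 higher, with a median difference of -0.90. This median was -0.95 without the arrays with squamous transcripts. Tap1, which forms the peptide transporter with Tap2, read 201, 195 and 192 in exposed CD40L-KO, against 965, 480 and 1150 in exposed C57BL/6 lungs (difference -2.01, SE 0.26, limma adjusted p = 0.0048), with 0.31 on a further, dim probe set. The inducible subunits of the immunoproteasome Psmb9, Psmb8 and Psmb10 had differences of -1.73, -1.44 and -1.25, with SE between 0.18 and 0.23. Their regulator Psme1 had -0.95, with 0.38 on a further probe set near the floor, the peptide loading factors Tap2 and Tapbp had -0.92 and -0.88, and the heavy chains H2-K1 and H2-D1 had -0.78 and -0.72. One of 2 further probe sets of H2-K1, a dim one, gave 0.10, and heavy chain genes are near-identical copies whose probes can share signal. Of 12 measured MHC class II genes, 6 were lower and 1 higher, with a median difference of -0.93, and of -1.03 without the arrays with squamous transcripts. H2-Eb1, a beta chain, read 1039, 1123 and 1202 in CD40L-KO, against 3611, 2086 and 2638 in C57BL/6 lungs (difference -1.27, SE 0.19, limma adjusted p = 0.0084). H2-Ab1 and H2-Aa had -1.24 and -0.99, and the peptide exchange factors H2-DMb1 and H2-DMa had -1.28 and -1.15. The remaining lower member was Ctss, a protease that frees the peptide groove, which the macrophage list holds too. H2-Ob, a chain of the exchange inhibitor that B cells make, was the member that was higher, at 90.0, 98.7 and 98.7 in CD40L-KO, against 51.0, 55.6 and 62.8 in C57BL/6 lungs (difference 0.69, SE 0.14, limma adjusted p = 0.035). It lost the call without any of the 3 CD40L-KO arrays and without C57BL/6 replicate 1 or 3. The class I count was 4 without each single exposed array except C57BL/6 replicate 2, when it was 9, the class II count of lower genes was 3 and 8 likewise, and both were 0 without the arrays with squamous transcripts.

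**Figure D3:**
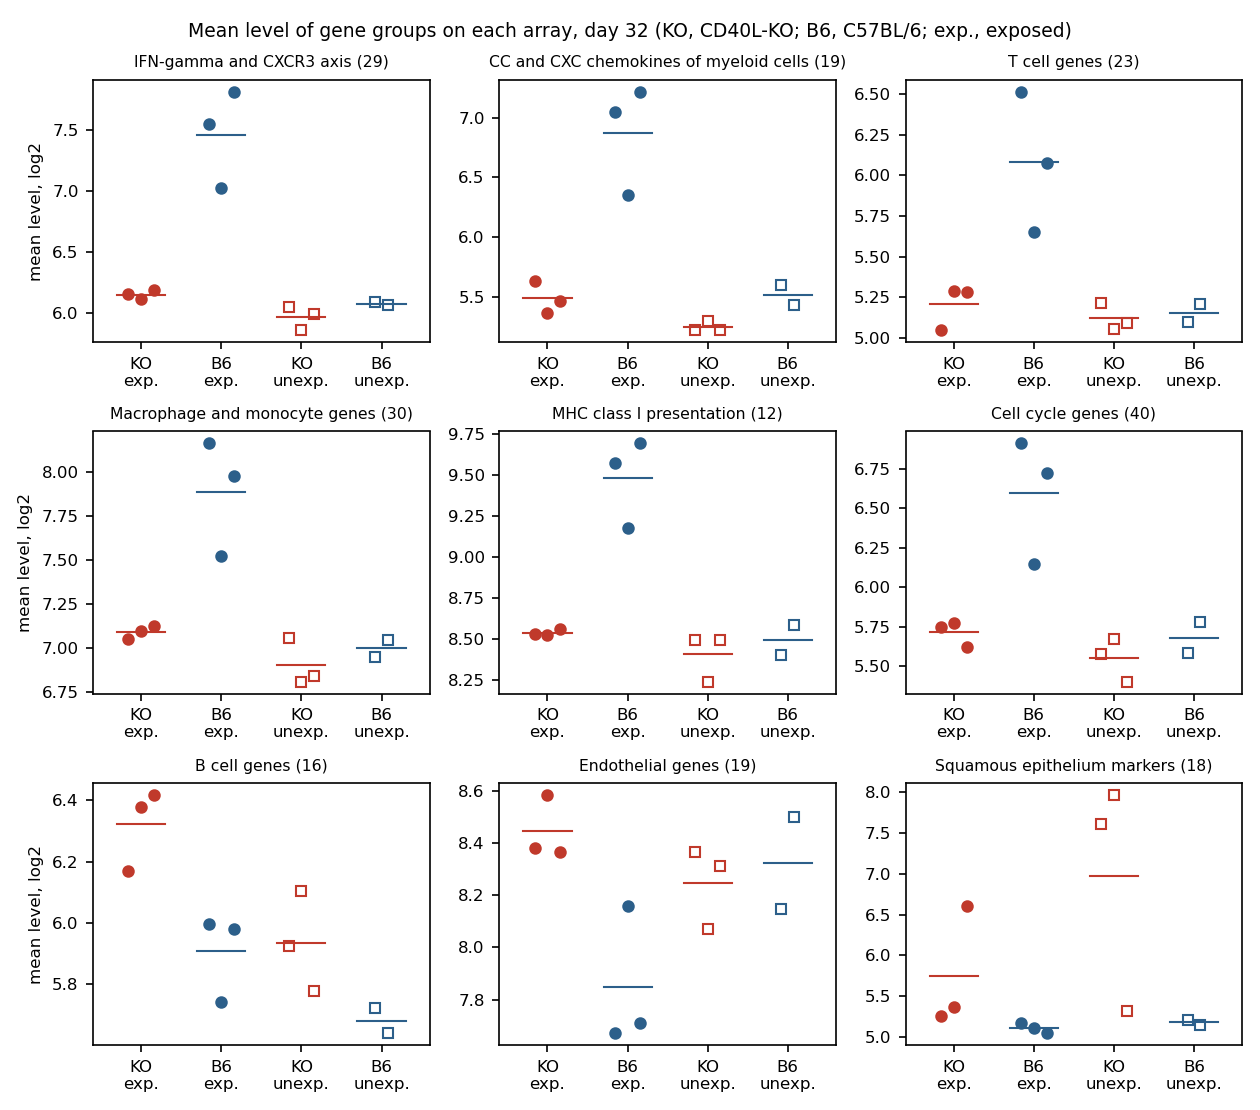
Mean level, log2(intensity + 8), of 9 gene groups on each array of day 32, with the number of measured genes in brackets. Filled circles are exposed and open squares unexposed mice, red CD40L-KO (KO) and blue C57BL/6 (B6), and lines are group means. In the interferon-gamma group exposed CD40L-KO mice lie between 6.11 and 6.18, and exposed C57BL/6 mice between 7.02 and 7.81. Squamous markers are high on 1 exposed and 2 unexposed CD40L-KO arrays.

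Transcripts of mucus-producing airway cells and of type 2 responses were lower for 4 of 22 measured genes and higher for 0, with a median difference of -0.44. Clca1, a secreted protein of goblet cells that promotes mucin production, read 198, 17.3 and 17.7 in exposed CD40L-KO, against 2677, 3343 and 3140 in exposed C57BL/6 lungs, 59.6-fold lower (difference -5.90, SE 0.74, limma adjusted p = 0.0047). CD40L-KO replicate 1 stood above the other 2 mice of its strain but still far below C57BL/6. A further, dim probe set of Clca1 gave 0.10. Muc5ac, the gel-forming mucin of goblet cells, was at the floor in CD40L-KO lungs, at 2.62 to 3.21, and at 21.7 to 34.6 in C57BL/6 lungs (difference -1.65, SE 0.17, limma adjusted p = 0.0015). Fcgbp, a mucus protein that binds antibody Fc, had -1.74 (SE 0.30), with -1.30 on its further probe set. Chil3, a chitinase-like protein of alveolar macrophages in type 2 responses, read 1042, 1274 and 1396 in CD40L-KO, against 4094, 3480 and 3390 in C57BL/6 lungs (difference -1.56, SE 0.23, limma adjusted p = 0.0087). Clca1, Muc5ac and Chil3 kept the call without each single exposed array. The list had 3 to 6 called lower members under these exclusions and 3 without the arrays with squamous transcripts.

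Of 12 measured antibody and plasma cell genes, 2 were lower, Igha and Pigr. The list had a median difference of -0.09, with 7 of 12 differences below 0. Igha, the heavy chain of the switched isotype IgA, read 67.8, 22.3 and 41.9 in exposed CD40L-KO, against 1106, 631 and 516 in exposed C57BL/6 lungs, 14.8-fold lower (difference -3.89, SE 0.37, limma adjusted p = 0.0010). Its further, dim probe sets gave -0.91 and -0.56. Pigr, the epithelial receptor that carries IgA into the airway lumen, read 497, 326 and 367 in CD40L-KO, against 1596, 1271 and 1653 in C57BL/6 lungs (difference -1.92, SE 0.19, limma adjusted p = 0.0012). Both kept the call without each single exposed array and without the arrays with squamous transcripts. Jchain, which joins IgA and IgM multimers, read 11.2 to 50.8 in CD40L-KO and 57.5 to 120 in C57BL/6 lungs and did not pass (difference -1.31, SE 0.54, limma adjusted p = 0.22). Ighm, the heavy chain of unswitched IgM, read 726, 647 and 784 in CD40L-KO, against 447, 425 and 406 in C57BL/6 lungs on its brightest probe set, which did not pass either (difference 0.74, SE 0.36, limma adjusted p = 0.29). Of its further probe sets, 2 passed in opposite directions, with differences of -4.02 and 1.34 (limma adjusted p over all probe sets = 0.0030 and 0.011), so no direction is given for Ighm.

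B cell surface genes stood on the other side. Of 16 measured members, 3 were higher in exposed CD40L-KO lungs and 0 lower, with a median difference of 0.42, against 0.07 over all genes. This median was 0.36 without the arrays with squamous transcripts. In unexposed mice of day 32 it was 0.23, with 3 of 16 differences below 0 and 0 called. At day 75 it was 0.43, with 0 of 16 below 0 and 0 called. Cd79b, a signalling chain of the B cell receptor, read 259, 302 and 332 in CD40L-KO, against 103, 95.6 and 139 in C57BL/6 lungs (difference 1.35, SE 0.17, limma adjusted p = 0.0047). Ms4a1, which encodes CD20, read 216, 287 and 234 in CD40L-KO, against 90.3, 112 and 129 in C57BL/6 lungs (difference 1.10, SE 0.18, limma adjusted p = 0.015), with 1.09 on its further probe set. Cd79a, the partner chain of Cd79b, had 0.80 (SE 0.18). Exposed CD40L-KO mice lay above the other 3 groups in Cd79b. Cd79b kept the call without each single exposed array, Ms4a1 lost it without CD40L-KO replicate 2 or 3 or C57BL/6 replicate 1, and 0 members were called without the arrays with squamous transcripts. Cxcl13, which guides B cells into lymphoid follicles, was the called member of 10 measured lymphoid chemokine genes and was lower, at 3.23 to 15.4 in CD40L-KO, against 40.8 to 72.1 in C57BL/6 lungs (difference -1.86, SE 0.42, limma adjusted p = 0.049). It lost the call without any exposed array other than C57BL/6 replicate 2.

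Cell cycle genes were lower for 13 of 40 measured members and higher for 0, with a median difference of -0.80 and 38 of 40 differences below 0, against 3351 of 8251 genes. The list median was -0.75 without the arrays with squamous transcripts. Kif20a, a kinesin of cytokinesis, read 29.9, 17.4 and 15.1 in exposed CD40L-KO, against 148, 70.4 and 102 in exposed C57BL/6 lungs (difference -1.97, SE 0.25, limma adjusted p = 0.0047), with -0.39 on a further probe set. The mitotic kinase Aurkb had -1.99 (SE 0.38) and the survivin gene Birc5 had -1.89 (SE 0.38). Mki67, the proliferation marker Ki-67, read 30.7, 21.2 and 22.6 in CD40L-KO, against 131, 61.3 and 91.6 in C57BL/6 lungs (difference -1.60, SE 0.26, limma adjusted p = 0.013), with 0.10 on a further probe set. The cyclin gene Ccnb2 had -1.60 (SE 0.29). C57BL/6 replicate 2 was the lowest of its strain in all 5 genes. Kif20a kept the call without each single exposed array. The count was 1 without CD40L-KO replicate 3, 2 without CD40L-KO replicate 2 or C57BL/6 replicate 3, 3 and 4 without C57BL/6 and CD40L-KO replicate 1, 25 without C57BL/6 replicate 2, and 1 without the arrays with squamous transcripts.

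Among the 74 genes that were higher in exposed CD40L-KO lungs, Pon1, an esterase that hydrolyses organophosphates and lipid peroxides, read 167, 174 and 144 in CD40L-KO, against 17.1, 89.9 and 27.2 in C57BL/6 lungs (difference 1.93, SE 0.42, limma adjusted p = 0.040). The unexposed arrays read 228 to 409 in CD40L-KO and 280 and 316 in C57BL/6 lungs, so exposed arrays of both strains lay below them. Igfbp3, which binds insulin-like growth factors, read 173, 280 and 287 in CD40L-KO, against 37.5, 99.3 and 49.0 in C57BL/6 lungs (difference 1.93, SE 0.32, limma adjusted p = 0.014), with 0.88 on its further probe set. Cdkn1c, an inhibitor of the cell cycle, read 269, 275 and 257 in CD40L-KO, against 84.4, 134 and 83.0 in C57BL/6 lungs (difference 1.37, SE 0.19, limma adjusted p = 0.0058) and kept the call without each single exposed array. Bmp6, a growth factor of the TGF-beta family, had 1.31 (SE 0.23), with 0.79 on its further probe set. Reck, an inhibitor of matrix proteases, had 1.25 (SE 0.28), Selenbp1, a selenium-binding protein, 1.21 (SE 0.28), and Sdc2, a heparan sulfate proteoglycan, 1.17 (SE 0.26). A further probe set of Sdc2, near the floor, gave 0.11. Acaa1b, an enzyme of peroxisomal fatty acid oxidation, had 1.10 (SE 0.17), with 0.22 on a further probe set. Pon1, Bmp6, Reck, Selenbp1 and Sdc2 lost the call without any exposed array other than C57BL/6 replicate 2, and Acaa1b without CD40L-KO replicate 2 alone. Igfbp3 lost it without CD40L-KO replicate 2 or 3 and without C57BL/6 replicate 1 or 3.

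By gene group, 3 of 22 measured xenobiotic metabolism genes were higher, Pon1, Fmo1 (difference 1.07, SE 0.23) and Ces1d (0.98, SE 0.17), with a median difference of 0.63. The count was 11 without C57BL/6 replicate 2 and 0 without any other exposed array. Of 19 measured endothelial genes 1 passed, Tek, the angiopoietin receptor, which read 324, 302 and 313 in CD40L-KO, against 102, 209 and 128 in C57BL/6 lungs (difference 1.11, SE 0.24, limma adjusted p = 0.042). All 19 differences were above 0, with a median of 0.65, and 5 passed without C57BL/6 replicate 2 and 0 without any other exposed array. The mean level of the list was 8.37 to 8.58 in exposed CD40L-KO and 7.67 to 8.16 in exposed C57BL/6 lungs. Lists of other tissues had medians of like size: 0.79 for 12 cardiac muscle genes (1 below 0) and 0.60 for 13 lipid uptake and adipocyte genes (2 below 0). Without CD40L-KO replicate 1 the cardiac and lipid medians were 0.27 and 0.01, whereas the endothelial median was 0.66. In 12 measured alveolar and club cell genes 0 passed with limma, with a median of 0.38. Of these 12, 5 had an unadjusted p under 0.05, against 19.4% of all genes. Cyp2f2, an enzyme of club cells, came nearest, at 2875, 2716 and 2383 in CD40L-KO, against 749, 2059 and 1008 in C57BL/6 lungs (difference 1.19, SE 0.31, limma adjusted p = 0.068). With limma, 0 members passed among the measured ciliated cell, smooth muscle, lipid uptake, erythroid, mast cell, squamous, skeletal muscle and cardiac muscle genes, with 0 to 2 members of each at an unadjusted p under 0.05. Nnt, Bhlhe40 (-1.13), Atf3 (-1.59, with 0.06 and -1.12 on further probe sets) and Timp1 were the called members of the mitochondrial, clock, immediate-early and matrix lists.

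Among the unexposed mice of day 32, 4 of 8251 genes passed with limma (0.0485%), 3 lower (0.0364%) and 1 higher (0.0121%) in CD40L-KO lungs, and 682 had an unadjusted p under 0.05 (8.27%). They were Igha (difference -3.22, SE 0.41), Nnt (-1.66, SE 0.16), Hnrnpl (-1.63, SE 0.22) and Ddx49 (1.46, SE 0.15). Igha read 31.0, 47.2 and 29.8 in unexposed CD40L-KO, against 315 and 494 in unexposed C57BL/6 lungs. The strains therefore differed in Igha in both cages, and the difference between cages was -0.67 (SE 0.55, limma adjusted p = 0.61). Nnt, a mitochondrial transhydrogenase known to be disrupted in the C57BL/6J substrain, read 40.2, 41.3 and 39.6 in exposed CD40L-KO, against 130, 133 and 118 in exposed C57BL/6 lungs, and 38.6 to 45.0 in unexposed CD40L-KO, against 128 and 180 in unexposed C57BL/6 lungs. Erdr1 read 1203, 1148 and 836 in exposed CD40L-KO, against 377, 82.7 and 249 in exposed C57BL/6 lungs (difference 2.35, SE 0.45, limma adjusted p = 0.026), and a further probe set gave -0.26. Erdr1 lost the call without any of the CD40L-KO arrays and without C57BL/6 replicate 3. In unexposed mice its difference was 2.43 (SE 0.50), which did not pass (limma adjusted p = 0.33). Of 40 measured neighbours of Cd40lg on the X chromosome, 20 on each side, 1 passed among exposed mice, against 2.74% of all genes. It was Sh2d1a, an adaptor of T cell signalling (difference -1.17, SE 0.21, limma adjusted p = 0.020), a call lost without any exposed array other than C57BL/6 replicate 2. The median of these 40 genes was 0.17, with a range of -1.17 to 0.80. The unexposed comparison has 3 arrays against 2, with squamous transcripts on 2 of the 3, and its count was 0 without those arrays, with the Gapdh ratio as covariate, and with the 2 tissue scores (squamous, skeletal muscle) as covariates. It was 49 without unexposed CD40L-KO replicate 3, 0 and 2 without unexposed C57BL/6 replicates 1 and 2, and 3 without unexposed CD40L-KO replicate 1 or 2.

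The strain difference itself differed between exposed and unexposed mice for 13 of 8251 genes (0.158%), 9 with a value below 0 (0.109%) and 4 above 0 (0.0485%), with 1161 at an unadjusted p under 0.05 (14.1%). Exposed mice shared a cage and unexposed mice another, so exposure and cage cannot be told apart here. Among the 152 lower genes 7 passed this test and among the 74 higher genes 4. The exposed arrays that selected these genes also enter this test, so these counts are a description. Saa3 had the largest value, -5.58 (SE 0.60, limma adjusted p = 0.0078), followed by Cxcl9 with -3.81 (SE 0.41), Iigp1 with -2.75 (SE 0.40) and Pigr with -2.21 (SE 0.29). Muc5ac had -1.66 (SE 0.26) and Nfkbiz, a nuclear regulator of NF-kappaB targets, had -1.42 (SE 0.21). On the higher side, Fabp1, a fatty acid binding protein, read 26.5, 30.7 and 29.5 in exposed CD40L-KO, against 2.21, 6.74 and 3.88 in exposed C57BL/6 lungs, and 20.9 to 35.2 in unexposed CD40L-KO, against 33.9 and 36.8 in unexposed C57BL/6 lungs (value 1.88, SE 0.27, limma adjusted p = 0.040). Hpgd, which degrades prostaglandins, had 1.46 (SE 0.22). Most exposed strain differences, Clca1 (-5.24, SE 1.10, limma adjusted p = 0.10) and Ccl2 (-4.22, SE 0.75, limma adjusted p = 0.071) among them, did not pass this test, which rests on 11 arrays. The count was 194 without exposed C57BL/6 replicate 2, 16 without unexposed CD40L-KO replicate 3 and 2 to 6 without each other array of day 32, and 0 without the arrays with squamous transcripts. It was 0 with the Gapdh ratio as covariate and 1 with squamous and skeletal muscle scores as covariates.

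The exposed C57BL/6 mice differed among themselves more than the exposed CD40L-KO mice did in these genes. Over the 152 lower genes, the median level relative to the mean of the 5 unexposed arrays was -0.0016, -0.02 and 0.05 in CD40L-KO replicates 1, 2 and 3, and 1.70, 1.00 and 1.54 in C57BL/6 replicates 1, 2 and 3. Over the 74 higher genes the medians were 0.24, 0.29 and 0.33 in CD40L-KO mice, and -0.71, -0.40 and -0.66 in C57BL/6 mice. C57BL/6 replicate 2 was the lowest of its 3 in 137 of the 152 lower genes and the highest in 50 of the 74 higher genes, whereas over all genes it was lowest in 34.8% and highest in 37.7%. It thus lay nearest to the CD40L-KO mice on both sides without reaching them. Since these genes were selected by the same arrays, the medians are a description.

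**Figure D4:**
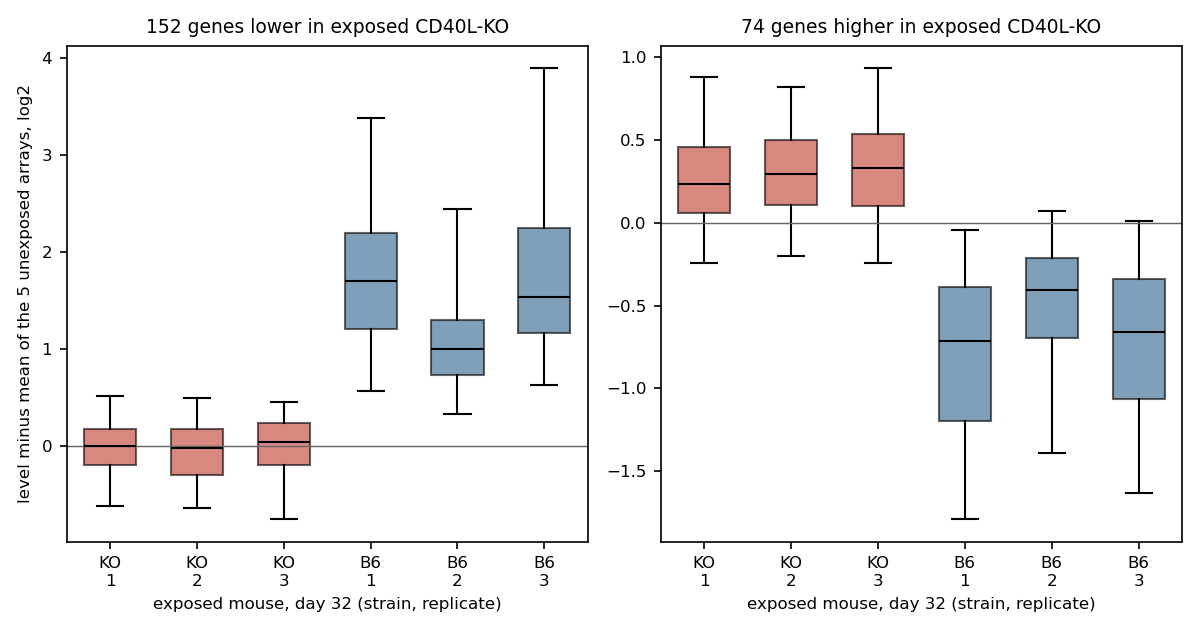
Level of the 152 lower (left) and 74 higher genes (right) in each exposed mouse of day 32, minus the mean of the 5 unexposed arrays (vertical axis, log2). Boxes span the quartiles with the median as a line, whiskers the 5th to 95th percentile of genes, red CD40L-KO (KO) and blue C57BL/6 (B6). C57BL/6 replicate 2 has a median of 1.00 on the left, against 1.70 and 1.54 in the other C57BL/6 mice.

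Arrays of other mice gave the same direction for many of these genes about 5 weeks into exposure. Exposed CD40L-KO mice of day 35 and exposed C57BL/6 mice of day 34 differed in 3239 of 8251 genes with limma (39.3%), of which 1848 were lower (22.4%) and 1391 higher (16.9%) in CD40L-KO lungs. At an unadjusted p under 0.05 the share was 47.3%. After quantile normalization 1437 were lower and 1648 higher. Strain, experiment, day and sex cannot be told apart in that comparison, since Eif2s3y exceeded Xist in all 4 CD40L-KO and 0 of 10 C57BL/6 arrays. Squamous transcripts stood apart on 0 of the 4 CD40L-KO and 3 of the 10 C57BL/6 arrays, and the Gapdh ratio was 1.04 to 1.24 in CD40L-KO and 0.897 to 3.02 in C57BL/6 arrays. With squamous and skeletal muscle scores as covariates 2818 genes passed, 2643 of them among the 3239, and with the Gapdh ratio as covariate 3369, 3206 of them among the 3239. Of the 152 genes lower at day 32, 102 were lower there too (67.1%, or 5.52% of the 1848) and 4 were higher. Of the 74 higher genes, 34 were higher there too (45.9%, or 2.44% of the 1391) and 4 were lower. Clca1 had a median of 11.1 in CD40L-KO mice of day 35 (3.67 to 58.1), against 3456 in C57BL/6 mice of day 34 (1850 to 4507), and the groups did not overlap (difference -7.09, SE 0.37). Saa3 had -3.54 (SE 0.39), Cxcl9 -3.69 (SE 0.26), Igha -2.37 (SE 0.34) and Pigr -2.27 (SE 0.19). Cxcl1 and Lcn2, lower at day 32, had a median of 68.7 and 969 in CD40L-KO mice of day 35, against 88.6 and 1074 in C57BL/6 mice of day 34, and did not pass (differences -0.45, SE 0.29, and -0.33, SE 0.31).

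By day 75 of exposure, 28 of 8251 genes passed with limma (0.339%), 21 lower (0.255%) and 7 higher (0.0848%) in CD40L-KO lungs, and 4.23% had an unadjusted p under 0.05. Of the 152 lower genes of day 32, 3 were lower again, Igha, Nnt and Ctse, and 1 was higher, Scin. Of the 74 higher genes 1 was higher again, Erdr1. Igha read 57.9 to 73.7 in CD40L-KO, against 2027 to 2434 in C57BL/6 lungs (difference -4.94, SE 0.31), the largest Igha difference of the 4 comparisons. Jchain, not called at day 32, had -3.85 (SE 0.46, limma adjusted p = 0.00027) at day 75. Saa3 read 78.1 to 252 in CD40L-KO and 26.8 to 109 in C57BL/6 lungs, overlapping groups that did not pass (difference 1.16, SE 0.48). Cxcl9 and Clca1 had 0.38 (SE 0.34) and 0.43 (SE 0.94). The 152 genes lower at day 32 had a median difference of 0.15 at day 75, against 0.02 over all genes. By list, the median was -0.15 for the interferon-gamma list, with 0 of 29 members called. It was above 0 for the myeloid chemokines (0.32, 2 of 19 below 0), the macrophage genes (0.33, 3 of 30 below 0, 2 called higher) and the cell cycle genes (0.23, 6 of 40 below 0, 0 called). The B cell list, with a median of 0.42 at day 32, had 0.43 (0 of 16 below 0, 0 called). Eif2s3y exceeded Xist on all 6 arrays of day 75, although the labels say female.

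**Figure D5:**
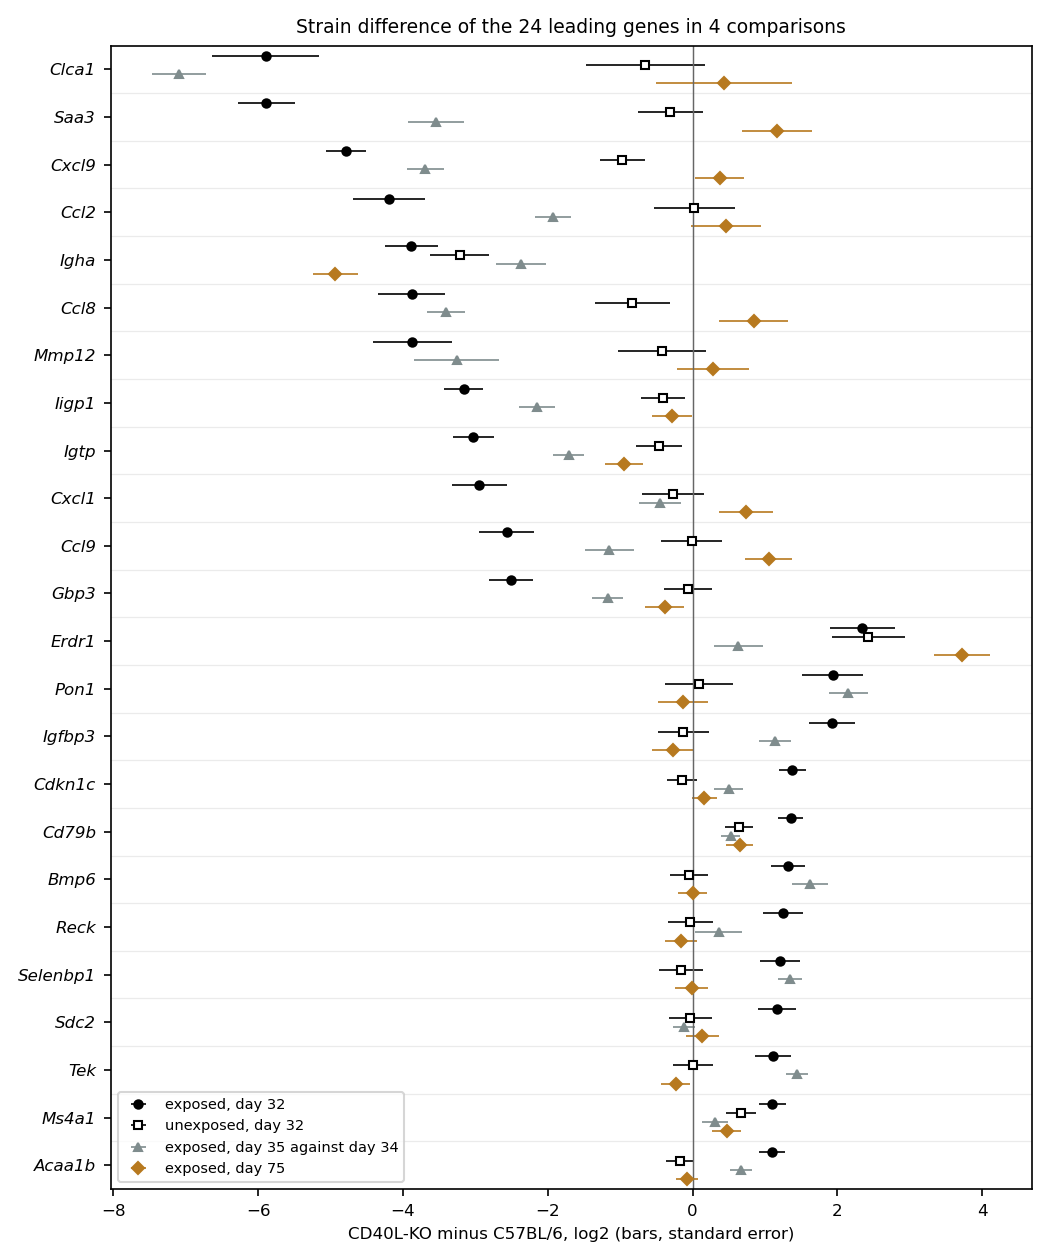
Strain difference, CD40L-KO minus C57BL/6 in log2 with its standard error (horizontal axis), of the 24 genes with the largest called differences at day 32 among exposed mice. Symbols are exposed mice of day 32 (filled circles), unexposed mice of day 32 (open squares), day 35 against day 34 (triangles) and exposed mice of day 75 (diamonds). Igha is low in all 4, and Saa3, Cxcl9 and Clca1 lie nearer to 0 in unexposed mice and at day 75 than in exposed mice of day 32.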

How the data were processed

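Labelled RNA from whole lung was hybridised to Affymetrix arrays, 1 mouse an array. The deposited table holds 1 linear intensity per probe set and array for 12487 probe sets and 95 arrays. From the values, the authors scaled every array to a common trimmed mean (99.988 to 99.999 without 2% at each end), and no source used here states how probes were summarised. Probe sets with 1 annotated gene (10832) were kept, those with several (396), none (1193) or control probes (65) were left out, and the brightest probe set stood for each of 8251 genes. No further normalization was applied to the deposited intensities before log2(intensity + 8), and array medians of day 32 ran from 38.9 to 44.2. The number of arrays limits the precision.

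limma 3.58.1 in R 4.3.3 (lmFit, eBayes, Benjamini-Hochberg over 8251 genes, threshold 0.05) was fitted to the 11 arrays of day 32 without a replicate block, and was tested on simulated data. The design names 3 mice a group, and 1 further unexposed C57BL/6 array is not analysed here. Days 35 and 34 were fitted with unexposed C57BL/6 arrays of day 34 (5) and unexposed CD40L-KO arrays of day 14 (5). Day 75 was fitted with the arrays of day 32 and exposed CD40L-KO arrays of day 39 (2). These further arrays entered the estimate of spread only and not the differences. Labels call the replicates separate mice. Same-numbered exposed mice did not deviate together (correlations -0.10, -0.04 and -0.02), so numbers do not pair them.

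Genes named are the 12 largest lower and 12 largest higher called ones brighter than the median gene, up to 5 called members of each of 34 lists (further called members complete a count), and a short list of genes tied to the question. Hnrnpl, Ctse and Scin were named because they make up small counts, and Fabp1, Hpgd, Ddx49, Nfkbiz, Abcb8, Klk1b1, Lrp6 and Ppm1b because the strain difference differed between cages, after their values were seen. The comparison, members and lists were chosen with earlier results of these data known.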

Additional observations from a re-analysis of the deposited data

Results flagged for a closer look

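The strain difference differed between exposed and unexposed mice of day 32, by limma's test of the difference itself, for 13 genes. The values, CD40L-KO minus C57BL/6 in exposed minus the same in unexposed mice, were -5.58 for Saa3, -3.81 for Cxcl9, -2.75 for Iigp1, -2.36 for Ddx49, -2.21 for Pigr, -2.17 for Abcb8, -1.84 for Klk1b1, -1.66 for Muc5ac and -1.42 for Nfkbiz. They were 1.88 for Fabp1, 1.52 for Ppm1b, 1.46 for Hpgd and 1.46 for Lrp6. Ddx49 reversed between cages: it read 5.83, 8.22 and 5.21 in exposed CD40L-KO, against 19.8, 17.1 and 19.6 in exposed C57BL/6 lungs, and 28.7, 27.2 and 25.6 in unexposed CD40L-KO, against 5.94 and 3.72 in unexposed C57BL/6 lungs.

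Of 52 groups of 4 or 10 arrays examined for 26 genes, 6 held an array whose gap to the next was large against the range of its group. By chance about 1 in 20 groups would pass this rule, but the same arrays recur across the genes, so these groups are not independent. Among CD40L-KO mice of day 35 the lowest array had a level of 7.32 for Gbp3 (next 7.66) and 6.26 for Nnt (next 6.30, a small gap). Among C57BL/6 mice of day 34 the highest array had 8.86 for Cxcl9, 10.78 for Igha and 10.73 for Ccl9, and the lowest had 6.82 for Cdkn1c.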

How the results depend on the processing

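The count of genes that differed between exposed strains at day 32 (226) was 139 and 394 with offsets of 2 and 32, 409 among the brighter genes, 894 with all arrays in one fit, 93 with squamous and skeletal muscle scores as covariates, 43 with the exposed arrays only and 20 without arrays with squamous transcripts. With the replicate block it was 114, and 5 with the exposed arrays only and the block, an alternative chosen after seeing the data. Leaving out 1 mouse gave 53 to 683. The unexposed count (4) was 2 with an offset of 2 and with quantile normalization, 25 with all arrays, and 0 with the tissue scores, the Gapdh ratio or the replicate block and without arrays with squamous transcripts. Leaving out 1 mouse gave 0 to 49. The difference between cages (13) was 3 and 26 with the offsets, 25 among brighter genes, 301 with all arrays, 1 with the tissue scores, 0 with the Gapdh ratio, 3 with the replicate block and 0 without arrays with squamous transcripts. Leaving out 1 mouse gave 2 to 194. The cause was not tested. Counts by days 34 and 35 and by day 75 stayed within 1.5 times, with no replicate block possible for the first. Of 82 named called genes 35 kept the call without each single exposed mouse, 4 (Saa3, Cxcl9, Igha and Iigp1) kept it under every alternative run, and 0 changed sign. Genes near the floor have compressed differences.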

Other observations

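A further probe set annotated to Ighm ran opposite to the brightest one. It read 56.8, 22.9 and 8.97 in exposed CD40L-KO, against 915, 427 and 354 in exposed C57BL/6 lungs of day 32 (difference -4.02, SE 0.45, limma adjusted p over all probe sets = 0.0030). In unexposed mice it read 8.75, 8.19 and 11.6 in CD40L-KO, against 259 and 285 in C57BL/6 lungs, and at day 75 it read 37.0, 58.3 and 39.2 in CD40L-KO, against 1861, 1733 and 1978 in C57BL/6 lungs. The groups did not overlap in any of these comparisons. Another probe set annotated to Ighm had a difference of 1.34 in the other direction, so probe sets given this gene name do not measure 1 transcript alike.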
